A study of Mus musculus with 6 samples.

Results

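The receptors described here are 10 genes that encode signalling chains for interleukin-7, interleukin-4, interleukin-21, the interleukin-6 family, interleukin-10 and the interferons: Il7r, Il4ra, Il21r, Il6ra, Il6st, Il27ra, Il10ra, Ifngr1, Ifngr2 and Ifnar1. They were taken by symbol from the 49315 genes of the count table, and all 10 were found and passed the filter on low counts. The RNA came from CD8+ T cells sorted out of the tumor-draining lymph nodes of wild-type female C57BL/6J mice that carried B16F10 tumors, a transplantable melanoma (the labels write the line as B26F10). One group of 3 mice had a single subcutaneous dose of HCW9218 (monotherapy), and the other group of 3 had the same agent together with intraperitoneal anti-PD1, an antibody against an inhibitory receptor of T cells (combination). Treatment began at tumor sizes between 50 and 100 mm3, and the cells were collected 5 days later. HCW9218 is, by the series title, a complex of a TGF-β receptor part and IL-15, and both groups received it, so each comparison asks what anti-PD1 added to it. No group without HCW9218 was analysed here, and ages of the mice are not given in the labels.

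These receptors have no enzyme activity of their own. Ligand binding brings at least one pair of chains together, the JAK kinases bound to their tails phosphorylate STAT proteins, and the STATs enter the nucleus; SOCS proteins, induced by the same signals, shut the receptor off. Il7r, Il4ra and Il21r pair with the common gamma chain encoded by Il2rg, Il6ra and Il27ra with gp130 encoded by Il6st, Il10ra with Il10rb, Ifngr1 with Ifngr2, and Ifnar1 with Ifnar2. In CD8+ T cells, interleukin-7 and interleukin-4 are known for survival and homeostasis, interleukin-21 and interleukin-27 for effector differentiation, and interleukin-10 and the interferons for tuning of the effector response.

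The 3 receptor genes with the smallest unadjusted p that have a RefSeq promoter entry are shown by the 250 bases before their start (RefSeq, GRCm38.p6, 5′ to 3′ on the gene's strand), since their transcripts are followed through the results. Of the 10 genes, 8 had an entry; Il10ra and Il27ra did not. Capitals mark a match to 1 of 6 motifs searched on both strands: the STAT element GAS (TTCNNNGAA), the interferon-stimulated element ISRE (GAAANNGAA), a FOXO element (GTAAACA), CRE (TGACGTCA), AP-1 (TGANTCA) and ETS (CCGGAAG).
Ifngr1, chr10:19591699-19591948, plus strand: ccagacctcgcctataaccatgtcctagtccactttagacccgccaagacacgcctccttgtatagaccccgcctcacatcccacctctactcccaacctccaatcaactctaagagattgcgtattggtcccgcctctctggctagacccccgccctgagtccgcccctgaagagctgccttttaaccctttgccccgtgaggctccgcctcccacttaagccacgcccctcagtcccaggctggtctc
Il6st, chr13:112463820-112464069, plus strand: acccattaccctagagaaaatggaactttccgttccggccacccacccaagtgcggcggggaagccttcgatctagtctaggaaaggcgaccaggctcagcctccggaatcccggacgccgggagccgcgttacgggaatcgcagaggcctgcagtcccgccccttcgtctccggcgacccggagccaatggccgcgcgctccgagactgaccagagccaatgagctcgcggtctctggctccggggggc
Il7r, chr15:9529877-9530126, minus strand: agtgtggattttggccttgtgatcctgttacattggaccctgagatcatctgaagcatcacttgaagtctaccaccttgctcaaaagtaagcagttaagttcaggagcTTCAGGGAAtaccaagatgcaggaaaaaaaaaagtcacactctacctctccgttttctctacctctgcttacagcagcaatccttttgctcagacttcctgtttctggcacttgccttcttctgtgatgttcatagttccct
The Il7r window held 1 match, a GAS element 142 bases before the start, and the windows of Ifngr1 and Il6st held none of the 6. Among 32851 promoters of the same length, 7.02% held GAS, 7.13% ISRE, 3.17% the FOXO element, 1.55% CRE, 6.75% AP-1 and 6.91% ETS. The 3 windows differed in CpG dinucleotides, of which Il7r had 1, Ifngr1 11 and Il6st 26, against a median of 6 over all promoters. In the other 5 windows the FOXO element occurred in Il21r, 38 bases before the start, and ETS occurred in Ifnar1, 231 and 147 bases before the start.

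The 6 libraries held 34568074 to 40101346 counts each, and the 10 receptor genes took 0.205 to 0.266% of them. The lowest receptor count in any library was 866, which puts counting error at no more than 3.40% of a value. The sorted cells had 47375 to 63542 counts of Cd8a and 14 to 127 of Cd4. The melanocyte genes Dct and Tyrp1 together had 1, 0 and 0 counts in monotherapy 1, 2 and 3, and 0, 582 and 743 in combination 1, 2 and 3. Tyr had 1, 0 and 0 and then 0, 39 and 67, and Mlana had 0, 0 and 6 and then 0, 21 and 42. Pmel did not follow them, with 871, 822 and 1118 counts in monotherapy and 956, 872 and 1153 in combination. Values below are counts-per-million (CPM) scaled with TMM factors. Folds come from edgeR's quasi-likelihood test of combination against monotherapy, and p-values were adjusted over all 15142 genes tested.

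With anti-PD1 added, Il10ra rose and the other 9 receptor transcripts did not pass the threshold of 0.05. Over all genes tested, 0.951% rose and 0.132% fell. Of the 10 receptors, 4 (Il7r, Il21r, Il10ra, Ifngr1) had all 3 combination libraries above all 3 monotherapy libraries, a pattern that 7.17% of all genes had. Another 3 (Il6st, Il27ra, Ifngr2) had all 3 below, as did 7.54% of all genes. An unadjusted p under 0.05 was found for 2 receptors that were higher, Il10ra and Ifngr1, and for 1 that was lower, Il6st; of all genes, 4.61% were higher and 3.39% lower by the same limit. The median log2 fold change of the 10 was 0.02, and that of all genes was -0.00.

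**Figure D1:**
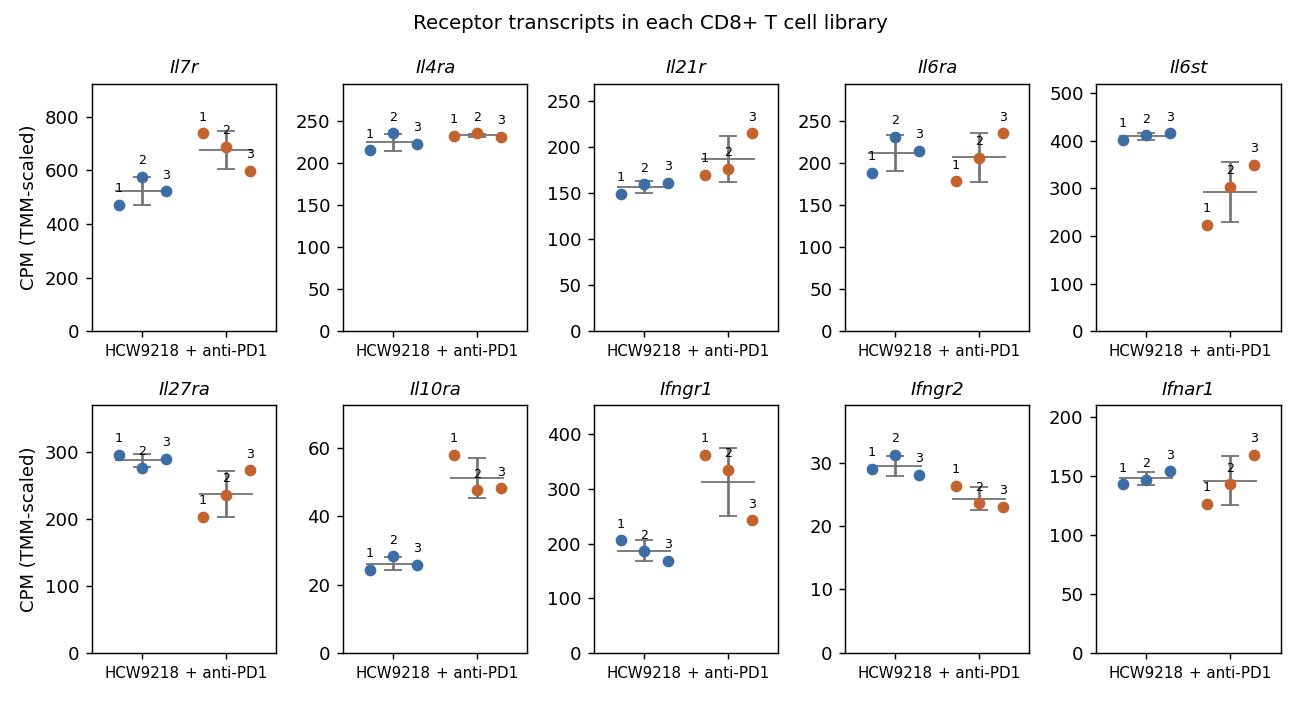
Each panel shows 1 receptor gene in TMM-scaled CPM (y axis, from 0), with numbered points for the 3 libraries of each group and the mean ± SD in grey. The Il10ra points of the combination group lie at 47.6 CPM or more, above the 28.3 CPM of the highest monotherapy library, while Il4ra, Il6ra and Ifnar1 overlap.

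Il10ra (chr9:45253837-45269149, minus strand) encodes the ligand-binding chain of the interleukin-10 receptor. It stood at 24.3, 28.3 and 25.8 CPM in monotherapy 1, 2 and 3 and at 57.9, 47.6 and 48.2 CPM in combination 1, 2 and 3. The groups were far apart, with the lowest combination library above the highest monotherapy library by more than the SD of either group (1.97 and 5.82 CPM). The rise was 0.97 ± 0.14 on the log2 scale (SE, n = 3 and 3), with a 95% interval from 0.66 to 1.28 and an edgeR adjusted p of 0.0108. This is a 1.96-fold difference between means of 26.1 and 51.2 CPM. In bulk RNA, a larger share of cells carrying a transcript and more of it per cell cannot be told apart. Leaving out any 1 monotherapy library kept the size, at 0.93, 1.03 and 0.96, but ended the call, with edgeR adjusted p-values of 0.0839, 0.0654 and 0.0948.

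Il10ra is also a gene of B cells, NK cells and myeloid cells, so the markers of those cells were measured beside it. The B cell list of 7 genes took 0.00391 to 0.00613% of counts in monotherapy and 0.00420 to 0.00787% in combination, and 1 of its genes, Cd22, rose while 5 of 7 had a log2 fold change below 0. With that share as a covariate the Il10ra difference was 0.98 (edgeR adjusted p = 0.0343). The NK list of 4 genes took 0.000633 to 0.000733% in monotherapy and 0.00130 to 0.00200% in combination, with an exact two-sided permutation p of 0.1, the smallest that 3 against 3 libraries can give. Within the NK list Klre1 rose (1.65 ± 0.25), and Klra8 (1.51 ± 0.41, edgeR adjusted p = 0.186) and Klrb1c (0.54 ± 0.30, edgeR adjusted p = 0.773) were also above 0 on the log2 scale. The other gene, Ncr1, had a mean of 0.226 CPM in monotherapy and 0.201 CPM in combination. The myeloid list of 8 genes took 0.000293 to 0.00159% in monotherapy and 0.000347 to 0.000590% in combination. Of the 3 tested myeloid genes, Lyz2 had 90, 58 and 423 counts in monotherapy and 125, 183 and 61 in combination. Csf1r had 11, 24 and 83 and then 25, 30 and 37. Itgam had 21, 30 and 30 and then 44, 15 and 21, with its highest count in combination 1. Lyz2 and Csf1r had log2 differences below 0, and Itgam was above 0 (0.12 ± 0.49). Fcgr1, S100a8 and S100a9 had 0 counts in each combination library, and monotherapy 3 had 35 counts of S100a8 and 57 of S100a9. A further list, of 6 dendritic cell genes, took 0.000361 to 0.000748% in monotherapy and 0.000476 to 0.000639% in combination. Its 3 tested genes were above 0 and none passed. Of these, Xcr1 had all combination libraries above (0.46 ± 0.25, edgeR adjusted p = 0.751). The part of the NK, myeloid and dendritic transcripts in the Il10ra result was not tested. Whether the transcripts of the NK list came from NK cells was not tested either. Combination 1, the 1 combination library with 0 counts of Dct and Tyrp1, had 956 counts of the melanocyte gene Pmel. This library differed from the 3 monotherapy libraries by 1.14 in Il10ra. With 1 library in that group its own spread is not measured.

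The partner chain Il10rb (chr16:91406164-91425834) had 64.2, 64.3 and 67.3 CPM in monotherapy and 84.5, 90.5 and 81.0 CPM in combination. All combination libraries again lay above all monotherapy libraries. The difference of 0.39 ± 0.12 on the log2 scale did not pass after adjustment (edgeR adjusted p = 0.279).

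The interferon-gamma receptor is built of Ifngr1, which binds the ligand, and Ifngr2, which brings in JAK2 and is required for signalling. Ifngr1 (chr10:19591949-19610229, plus strand) had 206, 186 and 168 CPM in monotherapy and 362, 334 and 242 CPM in combination. Every combination library was above every monotherapy library, and combination 3 was the nearest to them. The difference was 0.75 ± 0.18 on the log2 scale with an interval from 0.35 to 1.14, and did not pass (edgeR adjusted p = 0.118). This call depended on the setting. It was made with DESeq2 (0.74, adjusted p = 0.00598), which called 1.27% of all genes higher, and with edgeR and no filter on low counts (0.75, adjusted p = 0.00338), which called 1.04% higher. It was also made with edgeR in the absence of combination 3 (0.90, adjusted p = 0.00572). Over 16 other settings Ifngr1 was called in 6, with adjusted p-values from 0.00338 to 0.55, and its difference was above 0 in all 16. The settings share libraries and are not independent.

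Ifngr2 (chr16:91547072-91565169, plus strand) went the other way. Its values were 29.0, 31.2 and 28.1 CPM in monotherapy and 26.3, 23.6 and 23.0 CPM in combination, with all combination libraries below all monotherapy libraries. The difference of -0.28 ± 0.13 had an interval from -0.56 to 0.01 and did not pass (edgeR adjusted p = 0.631). It was called in 0 of the 16 other settings.

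Ifnar1 (chr16:91485238-91507441, plus strand), a chain of the type I interferon receptor, had 143, 147 and 154 CPM in monotherapy and 127, 143 and 168 CPM in combination. The groups overlapped, since combination held both the lowest and the highest library. The difference was -0.02 ± 0.14 with an interval from -0.34 to 0.30 (edgeR adjusted p = 0.989), and its sign turned when monotherapy 3 (0.0062), combination 1 (0.093) or combination 2 (0.012) was left out. Ifnar2, its high-affinity partner, had means of 81.5 ± 1.62 and 87.4 ± 4.66 CPM (SD, n = 3) and a difference of 0.10 ± 0.12 on the log2 scale (edgeR adjusted p = 0.944).

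Il6st (chr13:112464070-112510086, plus strand) encodes gp130, the signalling chain shared by the interleukin-6 family. Its monotherapy libraries were close together at 402, 412 and 416 CPM, and its combination libraries spread over 224, 304 and 350 CPM. Each combination library was below each monotherapy library, and combination 1 was the lowest. The difference was -0.49 ± 0.18 with an interval from -0.89 to -0.09; its unadjusted p was 0.0221 and it did not pass over all genes (edgeR adjusted p = 0.442). Without combination 1 it was -0.31 (edgeR adjusted p = 0.485). With combination 1 as the only library of its group it was -0.88 (edgeR adjusted p = 0.00648), a value whose spread comes from the monotherapy libraries and is assumed to hold for the lone one.

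Il6ra (chr3:89864059-89913196, minus strand) binds interleukin-6 itself. It had 188, 231 and 214 CPM in monotherapy and 178, 206 and 235 CPM in combination, with overlapping groups. The difference was -0.03 ± 0.15 with an interval from -0.38 to 0.31 (edgeR adjusted p = 0.987), and it turned to 0.034 without monotherapy 2 and to 0.084 without combination 1. The genes Adam17, Rhbdf2 and Adam10, which act in the shedding of this receptor from the cell surface, had log2 differences of 0.15, 0.18 and 0.02, and 0 of the 4 shedding genes passed with edgeR or DESeq2 or had an unadjusted edgeR p under 0.05.

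Il27ra (chr8:84030294-84042589, minus strand) encodes the interleukin-27 chain that pairs with gp130. Monotherapy libraries had 295, 276 and 290 CPM and combination libraries had 203, 236 and 272 CPM. All combination values lay below, combination 3 by the least. The difference of -0.28 ± 0.15 had an interval from -0.61 to 0.06 and did not pass (edgeR adjusted p = 0.743). The gene overlaps Palm3 on the other strand only at its end, where the gap between them is -1 base. Palm3 had 6571 counts over the 6 libraries against 59630 for Il27ra. Because the counting is not stated to use strand, reads across that end cannot be told apart.

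Among the chains that pair with the common gamma chain, Il7r (chr15:9506161-9529876, minus strand), the interleukin-7 receptor alpha chain of naive and memory T cells, was the most abundant. It had 471, 577 and 522 CPM in monotherapy and 738, 687 and 598 CPM in combination. Combination libraries were all higher, with combination 3 nearest to monotherapy 2. The difference was 0.37 ± 0.16 with an interval from -0.0018 to 0.73 (edgeR adjusted p = 0.626).

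Il21r (chr7:125603429-125633570, plus strand), the interleukin-21 receptor, had 150, 160 and 162 CPM in monotherapy and 170, 177 and 216 CPM in combination. Its combination libraries were also all higher, combination 3 by the most. The difference of 0.26 ± 0.14 had an interval from -0.06 to 0.57 (edgeR adjusted p = 0.754). Il4ra (chr7:125552120-125579474, plus strand), the interleukin-4 receptor alpha chain that lies next to it in the genome with a gap of 23955 bases, had 215, 236 and 223 CPM in monotherapy and 233, 236 and 231 CPM in combination. These groups overlapped, and the difference was 0.05 ± 0.12 with an interval from -0.23 to 0.33 (edgeR adjusted p = 0.974). The common gamma chain Il2rg had 549 ± 50.3 and 534 ± 63.9 CPM (SD, n = 3) and a difference of -0.04 ± 0.16 (edgeR adjusted p = 0.987).

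**Figure D2:**
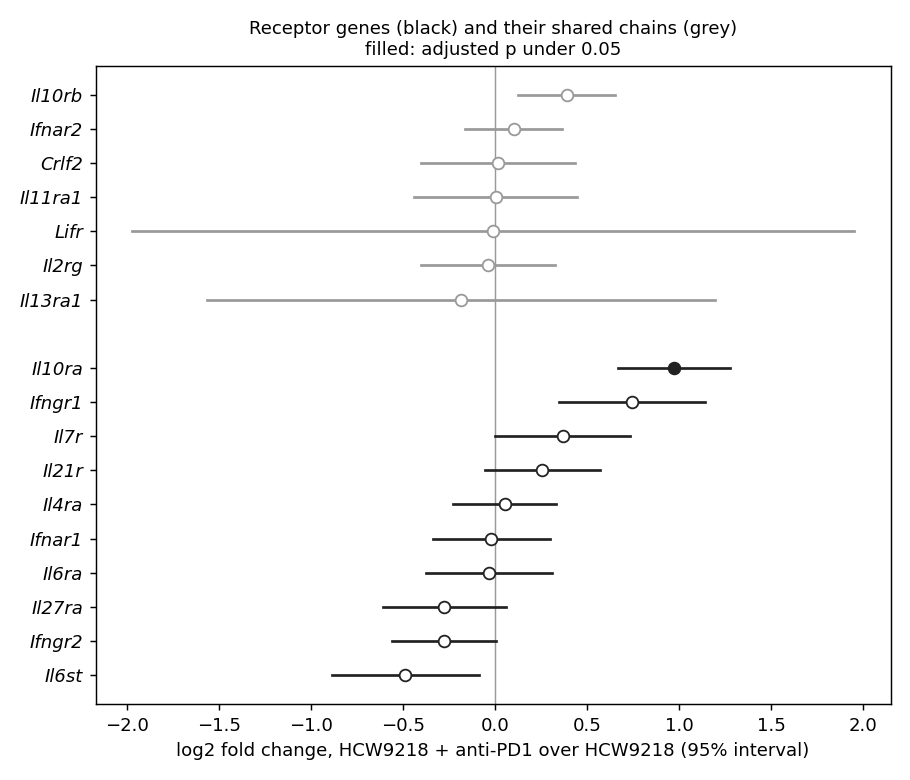
Points show the log2 fold change of combination over monotherapy (x axis) with its 95% interval, for the 10 receptor genes in black and the 7 tested shared chains in grey; a filled point has an edgeR adjusted p under 0.05. Il10ra is the filled point; besides its interval, those of Ifngr1, Il6st and the shared chain Il10rb do not reach 0, and the others do.

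Levels of different genes were compared per length, as transcripts-per-million (TPM) from the deposited exon lengths. Il7r was the highest receptor transcript, with a mean of 522 TPM over the 6 libraries and a range from 384 to 660 TPM that did not overlap the next. Ifngr1 followed with 242 TPM, then Il27ra with 214, Il21r with 148, Il4ra with 108, Il6st with 90.7, Ifnar1 with 71.4, Il6ra with 69.1, Il10ra with 30.9 and Ifngr2 with 22.8 TPM. Each neighbouring pair after Il7r overlapped over the 6 libraries. The order in RPKM was the same for 10 of 10 genes, which is no separate check because it uses the same counts and lengths.

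The order was not the same in the groups. In monotherapy Il27ra (221 to 247 TPM) was above Ifngr1 (176 to 190 TPM) with no overlap, whereas in combination Ifngr1 (281 to 315 TPM) was above Il27ra (128 to 276 TPM). At the lower end, Ifngr2 (mean 25.2 TPM) and Il10ra (mean 21.2 TPM) overlapped in monotherapy, and Il10ra (36.5 to 48.8 TPM) was above Ifngr2 (17.5 to 24.6 TPM) in combination. In TPM, the combination libraries were all above for 2 receptors, Il10ra and Ifngr1, and all below for 0; of all genes tested, 4.62% were all above and 4.75% all below in TPM. The TPM ranges of Il7r, Il21r, Il6st, Il27ra and Ifngr2, which were apart in CPM, overlapped. For Il6st the highest combination library and the highest monotherapy library both had 112 TPM. Exon length is constant within a gene, so between libraries its TPM and TMM-scaled CPM differ only by how each library is scaled.

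**Figure D3:**
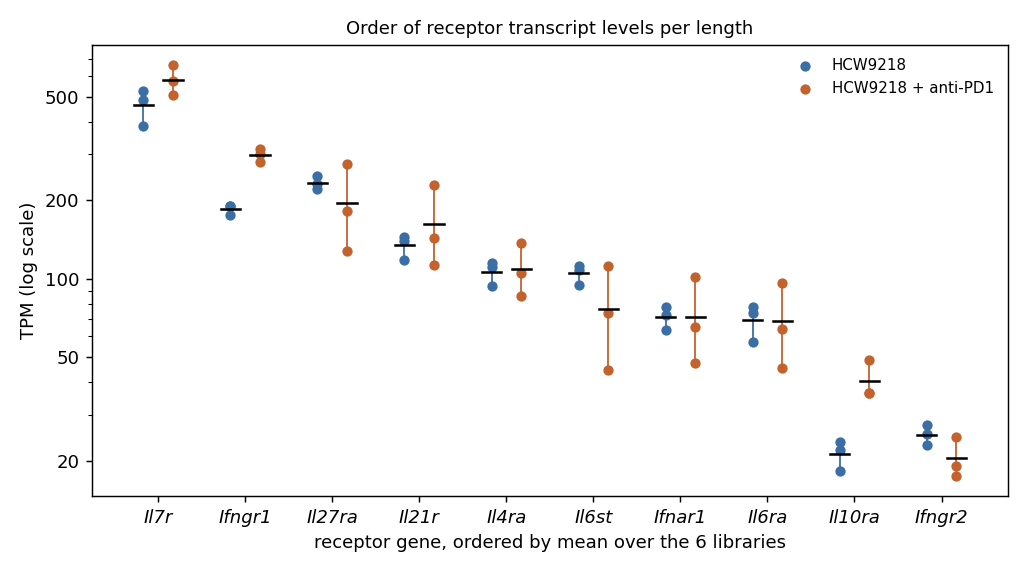
TPM on a log axis for the 10 receptor genes in order of their mean over 6 libraries, with a point per library, a line over the range and a black bar at the mean of each group. Il7r lies above all others, and the ranges of the groups are apart for Il10ra and Ifngr1.

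Ratios of a chain to its partner within a library need no scaling between libraries. They do not remove differences between libraries that go with exon length, which is 11099 bases for Il6st and 3495 for Il27ra. The part of length in the ratios was not tested. Across 8 such ratios of TPM values, chosen after the values were seen, 4 had all combination libraries on one side. How often ratios of other gene pairs do so was not measured. The ratio of Ifngr1 to Ifngr2 was 8.29, 6.93 and 6.96 in monotherapy and 16.0, 16.5 and 12.3 in combination, a 2.01-fold difference with no overlap. The ratio of Il10ra to Il10rb was 0.413, 0.478 and 0.418 in monotherapy and 0.746, 0.572 and 0.647 in combination, a 1.496-fold difference. Il6ra to Il6st went from a mean of 0.661 ± 0.0593 to 0.918 ± 0.0883 (SD, n = 3), and Il27ra to Il6st from 2.23 ± 0.103 to 2.60 ± 0.234. Both divide by Il6st, so they are not separate results. For each of the 4 the exact two-sided permutation p was 0.1, the smallest possible, or 0.2 after adjustment over the 8 ratios, so none can pass the threshold with 3 libraries a group.

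The other 4 ratios overlapped between the groups. Ifnar1 to Ifnar2 had means of 1.03 ± 0.0593 and 0.946 ± 0.147, and Il7r to Il2rg had 0.717 ± 0.135 and 0.944 ± 0.105 (SD, n = 3). Il4ra to Il2rg had 0.164 ± 0.0221 and 0.175 ± 0.0188, and Il21r to Il2rg had 0.207 ± 0.0258 and 0.256 ± 0.0598. A ratio shows unequal change and does not say which chain moved.

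**Figure D4:**
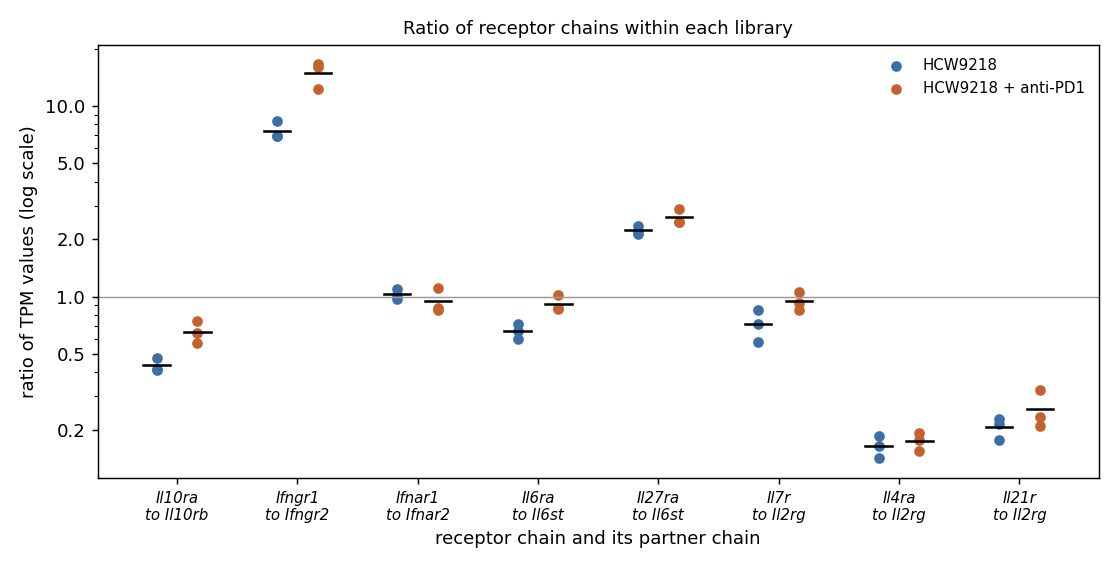
Ratio of the TPM of a receptor chain to that of its partner in each library (log axis), with a point per library and a black bar at the group mean; the grey line marks equal levels. The Ifngr1 to Ifngr2 ratio lies at 6.93 to 8.29 in monotherapy and at 12.3 to 16.5 in combination.

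Most genes varied more within the combination group, receptors included. Among 6871 genes at 20 CPM or more the coefficient of variation was larger in combination than in monotherapy for 80.1%, with medians of 8.20% in monotherapy and 15.1% in combination. It was larger in combination for 9 of 10 receptors, Il4ra being the exception, with medians of 5.02% and 13.5%, a count near that share. In combination, Il6st, Il27ra, Il6ra, Il21r and Ifnar1 were lowest in library 1 and highest in library 3, whereas Il7r, Ifngr1 and Ifngr2 were highest in library 1 and lowest in library 3. These libraries are replicates and their numbers carry no order.

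Exon length moved with that spread. Genes with exons of 5000 bases or more, 4749 of the 15142, had a median log2 level of -0.17 in combination 1 and 0.06 in combination 3 relative to the monotherapy mean, whereas shorter genes had 0.10 and -0.08. The 4 receptors of that length (Il6st, Il6ra, Il4ra and Ifnar1) had medians of -0.23 and 0.10 in the same libraries, and the 6 shorter receptors had 0.31 and 0.29. The median of the long receptors thus differed between these libraries in the direction of the long genes. That of the shorter receptors was higher than that of the short genes in both. Single receptors departed from these medians. Il4ra was at 0.05 and 0.04 in combination 1 and 3, Il27ra at -0.50 and -0.08, and Ifngr2 at -0.16 and -0.35. Il7r, Il21r, Il10ra and Ifngr1 were above the median of the short genes in both. Spearman correlations of length with the level relative to monotherapy, across genes, which are not independent, were -0.26, -0.03 and 0.16 in combination 1, 2 and 3, and across all genes length had a correlation of -0.11 with the fold change between groups. TMM factors were 0.901, 0.970 and 1.12 in combination 1, 2 and 3 and 0.968 to 1.03 in monotherapy. The part of length in the values of the long receptors was not tested.

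The rest of the pathway was read from lists of related genes. The lists were chosen with earlier results of these data known, so their counts are a description. Of all genes, 4.61% were higher and 3.39% lower at an unadjusted edgeR p under 0.05. DESeq2 called 1.27% of the genes it tested higher and 0.291% lower. None of the 7 tested shared chains passed with edgeR or DESeq2, and 1 had an unadjusted edgeR p under 0.05; their median log2 fold change was 0.00, and Il13ra1 was near the floor, at 0.399 and 0.350 CPM. Among 12 tested chains of other cytokine receptors edgeR called none, with 2 at an unadjusted p under 0.05, DESeq2 called 1 higher, and the median was 0.13. Il2rb, the signalling chain for interleukin-2 and interleukin-15, was nearest, with 273, 308 and 318 CPM in monotherapy and 473, 486 and 566 CPM in combination. All combination libraries were higher, and the difference of 0.76 ± 0.15 had an edgeR adjusted p of 0.0515. Il3ra had 7.20 and 10.9 CPM (0.60 ± 0.17, edgeR adjusted p = 0.213), and Il20rb had 3.14 and 4.58 CPM (0.54 ± 0.31, edgeR adjusted p = 0.774).

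Downstream of the receptors, edgeR called none of 12 JAK, STAT and Irf9 transcripts, with 1 at an unadjusted p under 0.05 and a median of -0.10, and DESeq2 called 1 lower. Jak1, the kinase bound by most of these receptors, had log2 differences of 0.08 ± 0.17, Tyk2 0.02 ± 0.18, Stat2 -0.28 ± 0.20, Stat3 -0.14 ± 0.15, Stat4 0.35 ± 0.21 and Stat6 -0.18 ± 0.14.

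Of 18 genes that damp these receptors, edgeR called none, with 2 at an unadjusted p under 0.05, and DESeq2 called 1 lower; the median was -0.04. Socs3, the inhibitor that binds gp130, had 110, 162 and 112 CPM in monotherapy and 87.7, 77.4 and 82.3 CPM in combination. The groups did not overlap, and the difference was -0.63 ± 0.17 (edgeR adjusted p = 0.186). Socs1, an inhibitor of interferon-gamma signalling, had 33.0, 52.2 and 47.6 CPM in monotherapy and 35.2, 26.2 and 32.3 CPM in combination, which overlapped (-0.50 ± 0.19, edgeR adjusted p = 0.471). Cish, an inhibitor induced by STAT5, had 5.78 ± 1.35 and 7.99 ± 1.58 CPM (0.47 ± 0.22, edgeR adjusted p = 0.671).

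Transcripts of the ligands were scarce in these cells. Of 21 ligand genes, 6 were tested, none passed with edgeR or DESeq2 or had an unadjusted edgeR p under 0.05, and 5 type I interferon genes (Ifnb1, Ifna1, Ifna2, Ifna4 and Ifna5) had 0 counts in every library. Ifng, the ligand of Ifngr1 and Ifngr2, had 351, 457 and 357 counts in monotherapy and 403, 395 and 283 in combination, which overlapped. The 3 smallest p-values were those of Osm (-0.21 ± 0.14), Lif (-0.54 ± 0.48) and Clcf1 (0.20 ± 0.23).

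Genes known to respond to these receptors were followed in 3 lists, and edgeR called none of their members. All 33 interferon response genes had a log2 fold change below 0, with a median of -0.37 against -0.00 for all genes; 15 had an unadjusted p under 0.05 (3.39% of all genes were lower at that limit) and 15 had all combination libraries below all monotherapy libraries (7.54% of all genes). The list was chosen with earlier results of these libraries known, so its direction is a description. Irf1, a transcription factor induced by interferon-gamma, had 594, 556 and 511 CPM in monotherapy and 375, 340 and 327 CPM in combination. All combination libraries were lower, and the difference of -0.67 ± 0.15 had an edgeR adjusted p of 0.0884. Iigp1, an interferon-induced GTPase, differed by -0.71 ± 0.16 (edgeR adjusted p = 0.0976) and Cd274, which encodes PD-L1, by -0.69 ± 0.17 (edgeR adjusted p = 0.133). The number below 0 ranged from 28 to 33 of the 33 over the 16 other settings, and was 29 without combination 2 and 3. DESeq2 called 4 of the 33 lower, against 0.291% of the genes it tested, and edgeR with no filter on low counts called 9, against 0.347%.

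The 10 STAT3 response genes had a median of -0.15, and 4 of them had an unadjusted edgeR p under 0.05. Of all genes, 4.61% were higher and 3.39% lower at that limit. DESeq2 called 2 of the 10 lower, against 0.291% of the genes it tested. This list too was chosen with earlier results known. Junb, an AP-1 factor, had 893 ± 149 and 497 ± 164 CPM (SD, n = 3; -0.85 ± 0.25, edgeR adjusted p = 0.248), and Rora, a nuclear receptor, had 12.5 ± 0.762 and 8.79 ± 1.16 CPM (-0.51 ± 0.16, edgeR adjusted p = 0.314). The 10 STAT5 and STAT6 response genes had a median of 0.01, with 1 at an unadjusted edgeR p under 0.05. DESeq2 called 1 of the 10 higher, against 1.27% of the genes it tested. There the survival gene Bcl2l1 had 16.4, 16.7 and 14.7 CPM in monotherapy and 23.8, 22.6 and 24.3 CPM in combination. Its groups were apart (0.57 ± 0.13, edgeR adjusted p = 0.0999), and Myc was at -0.29 ± 0.13 (edgeR adjusted p = 0.625).

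**Figure D5:**
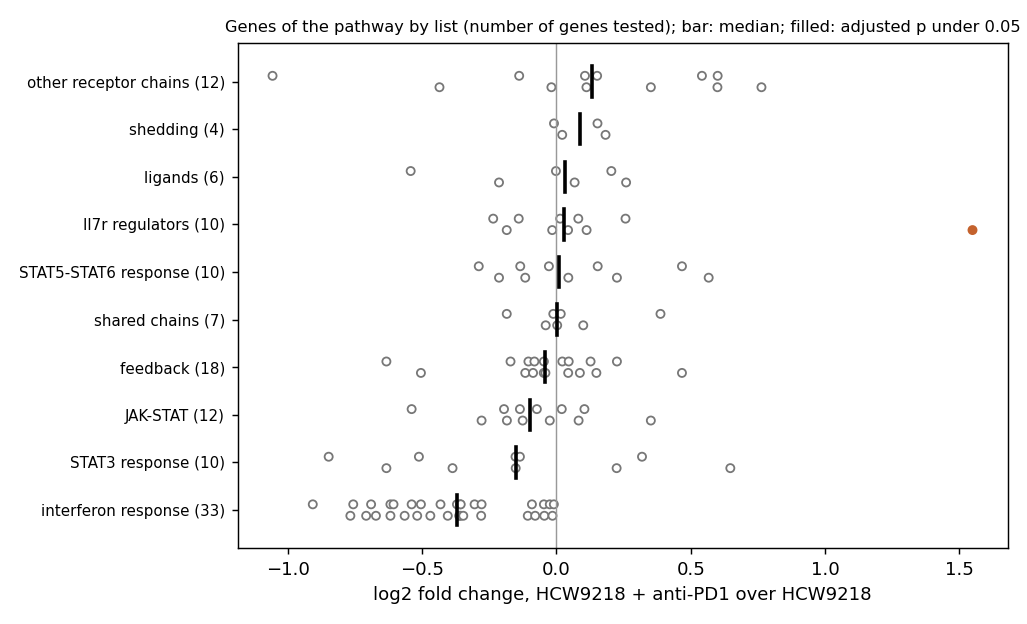
Each circle is 1 tested gene of the list named on the y axis, at its log2 fold change of combination over monotherapy; the bar is the list's median and a filled circle has an edgeR adjusted p under 0.05. The interferon response genes all lie below 0 with a median of -0.37, and the 1 filled circle is Tbx21.

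Of 10 transcription factors known to regulate Il7r, 1 passed, and of all genes tested 0.951% were called higher. Whether any of these factors acted on Il7r in these cells was not tested. Tbx21, which encodes T-bet, had 7.94, 13.0 and 12.8 CPM in monotherapy and 30.7, 32.5 and 35.7 CPM in combination. The groups were widely apart, and it rose by 1.55 ± 0.20 on the log2 scale (edgeR adjusted p = 0.00691). Foxo1, an activator of Il7r, had 270, 309 and 287 CPM in monotherapy and 238, 256 and 268 CPM in combination (-0.18 ± 0.13, edgeR adjusted p = 0.881), and Gfi1, a repressor, had 13.9 ± 1.67 and 11.8 ± 1.14 CPM (-0.23 ± 0.16, edgeR adjusted p = 0.853).

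On chromosome 16, 4 receptor genes lie in a row in the order Ifnar2, Il10rb, Ifnar1 and Ifngr2, with 59404 bases between Il10rb and Ifnar1 and 39631 bases between Ifnar1 and Ifngr2. Their log2 differences were 0.10, 0.39, -0.02 and -0.28 in that order. The last pair in the row had differences below 0 and the first pair above 0, and none passed the threshold.

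The genes whose log2 CPM followed Il10ra most closely over the 6 libraries were Birc5 (Pearson r = 0.998), an inhibitor of apoptosis that acts in mitosis, Myo6 (0.997), an unconventional myosin, and Ddit4 (0.997), a stress-induced inhibitor of mTORC1. The 6 libraries include the gap between the groups, so these values are a description. Birc5 went from 5.45 to 20.5 CPM and Ddit4 from 63.9 to 185 CPM, and both rose (edgeR adjusted p = 0.0039 and 0.0035). Myo6 had 5.21 and 7.74 CPM and did not pass (edgeR adjusted p = 0.245).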

How the data were processed

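Polyadenylated RNA of Trizol extracts was made into NEBNext Ultra II libraries, per the labels' protocols. The submitters' processing notes name DESeq2, featureCounts, STAR 2.5.2b and Subread 1.5.2, but settings and strand use of the counting and its genome build are not given. The deposited values are whole-number counts of reads per gene, not normalized, with 34568074 to 40101346 per library. The deposited table has 6 more columns that no sample's labels match, and they were left out. Deposited coordinates equalled those of GENCODE M21 (GRCm38) for 44858 of 49056 genes and for 8 of the 10 receptors.

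The fit used edgeR 4.0.16 under R 4.3.3 (filterByExpr, TMM, quasi-likelihood F-test, no covariate, Benjamini-Hochberg over 15142 genes, threshold 0.05). Standard errors are the coefficient over the root of F, and intervals cover 95%. TPM values were computed from deposited exon lengths. The test was checked on simulated counts. Alternatives used limma 3.58.1 and DESeq2 1.42.0, other scalings, filters, covariates and sets of libraries. Intervals rest on the spread between these libraries, with each gene's estimate drawn toward that of other genes (9.5 degrees of freedom). They are thus not the spread of that gene alone.

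Members and lists were chosen with earlier results of these data known. Named genes were the 10 receptors, 14 fixed partners and pathway genes, in each pathway list every gene past the threshold and the 3 with the smallest p, and the 3 genes most correlated with Il10ra. One gene that the rule takes is not reported here. Chain ratios, the length check and the comparison of spread were added after the values were seen.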

Additional observations from a re-analysis of the deposited data

How the results depend on the processing

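Il10ra was called in 13 of 16 other settings, with log2 differences from 0.89 to 1.15; the exceptions left out 1 monotherapy library each. Counts of genes higher, genes lower and receptors called moved from 144, 20 and 1 to 258, 59 and 2 with DESeq2, 340, 113 and 2 with no low-count filter, and 834, 628 and 3 without both combination libraries 2 and 3, where 1 library is left and is assumed to vary like the others. With Dct and Tyrp1 as a covariate they were 134, 123 and 3, and with the B cell share as a covariate 82, 5 and 1. The Dct and Tyrp1 covariate was at or near 0 in monotherapy and combination 1, so its group difference rests largely on combination 1. It is thus no separate check from leaving out combination 2 and 3. Il10ra differed by 1.15 with this covariate and by 1.14 with that omission, and Ifngr1 by 0.97 and 0.95. Leaving out 1 library at a time gave 32 to 233, 2 to 49 and 0 to 2, with the lowest numbers of higher genes without monotherapy 1 (32), 2 (49) or 3 (33) or combination 2 (69) and the highest without combination 3. The added receptors were Ifngr1 and, without combination 2 and 3 (-0.88) or with the Dct and Tyrp1 covariate (-0.88), Il6st. Over these omissions Il6ra ranged from -0.14 to 0.084 and Ifnar1 from -0.13 to 0.093, turning sign. The causes were not tested.

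With the replicate number as a block, counts were 231, 57 and 2, Ifngr1 being called at 0.73 (edgeR adjusted p = 0.0190). Same-numbered libraries had correlations of 0.15, -0.06 and 0.28 in their deviations from the group means. Libraries 1 and 3 of each group correlated best with their own number, and monotherapy 2 and combination 2 did not. Deviations from a mean of 3 libraries are tied to each other, so these values cannot decide whether same-numbered libraries were paired.

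At 3 libraries a group permutation p-values cannot pass the threshold, and most receptor intervals span 0. The RLE and upper-quartile scalings, limma-voom and the filter at 1 CPM kept all 3 counts within 1.5 times.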
